A study of Drosophila melanogaster with 4 samples.

Results

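Neuroblasts (NBs), the neural stem cells of the fly brain, divide asymmetrically into a renewed NB and a ganglion mother cell (GMC), whose progeny become neurons. Before such a division, the Par complex of *baz*, *par-6* and *aPKC* gathers at the apical cortex, *insc* links it to *pins* and *mud*, which orient the spindle, and the phosphorylation of basal proteins by aPKC drives *mira* and *numb* to the opposite side. *mira* is the adaptor that carries the transcription factor *pros* and the translational repressor *brat* into the GMC, and *numb* inhibits Notch signaling in the cell that inherits it. These 10 genes were chosen by their FlyBase symbols, and all 10 were found among the 23932 counted features, all of protein-coding biotype.

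Their mRNA was measured by sequencing of polyA RNA from *Drosophila melanogaster* brains of wandering L3 larvae (WL3), from flies kept for 1 week. The genotypes were *insc*-GAL4>*orb2* RNAi, which expresses a hairpin against *orb2*, an RNA-binding protein of the CPEB family, and *insc*-GAL4>*w* RNAi, which expresses a hairpin against the eye color gene *white* (*w*) and served as the control. Both genotypes carried *insc*-GAL4, a driver active in NBs and their progeny. Each genotype had 2 libraries, each made from a pool of 60 brains dissected in batches of 20, so single animals and cell types were not resolved.

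The libraries held 34610836 to 75412298 counts. These totals are larger than the read numbers and alignment rate in the study's methods imply, so whether a count is a fragment, a single read or 1 of several alignments of a read is not known. Counts of *orb2* went against the labels, those of *w* overlapped between them, and the cause was not tested. *orb2* had 105.3 and 53.6 CPM (the usual abundance unit of sequencing, counts scaled to a common library total, here with TMM factors) in libraries labelled *orb2* RNAi, against 17.1 and 15.3 CPM in those labelled *white* RNAi, and *w* was at 121 and 93.8 CPM against 111 and 185 CPM. Libraries are therefore named by their labels, and directions follow the labels. Replicates labelled *white* RNAi were also less alike than those labelled *orb2* RNAi, with a spread across features (scaled median absolute deviation of the log2 ratio) of 0.98 against 0.368. All 7 NB markers and all 13 neuron markers were above 1 CPM in every library. So were all listed markers of fat body (5), hemocytes (4), imaginal discs (6) and ring gland (4), so this level does not single out the brain.

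No gene of the set passed the test between the labelled genotypes. edgeR's quasi-likelihood test called 0 of the 10, where a call needs a change of more than 0.5 on the log2 scale and an adjusted p below 0.05, and gave each an adjusted p of 0.9998. It called 0% of the 13082 features tested in either direction, and all 10 genes had passed its filter on low counts. At an unadjusted p under 0.05 it found none of the 10, against 4.57% of all features (3.68% higher and 0.894% lower). DESeq2 without shrinkage called none of the 10, against 0.505% of features higher and 0.161% lower, and DESeq2 with its prior on fold changes called none either, against 0.206% higher and 0.0229% lower. Fold changes put the *orb2* RNAi label over the *white* RNAi label. Their median on the log2 scale was 0.05 for the set and 0.02 for all features, with 6 genes of the set above 0 and 4 below. A pool of whole brains cannot tell fewer NBs from less RNA per NB.

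**Figure D1:**
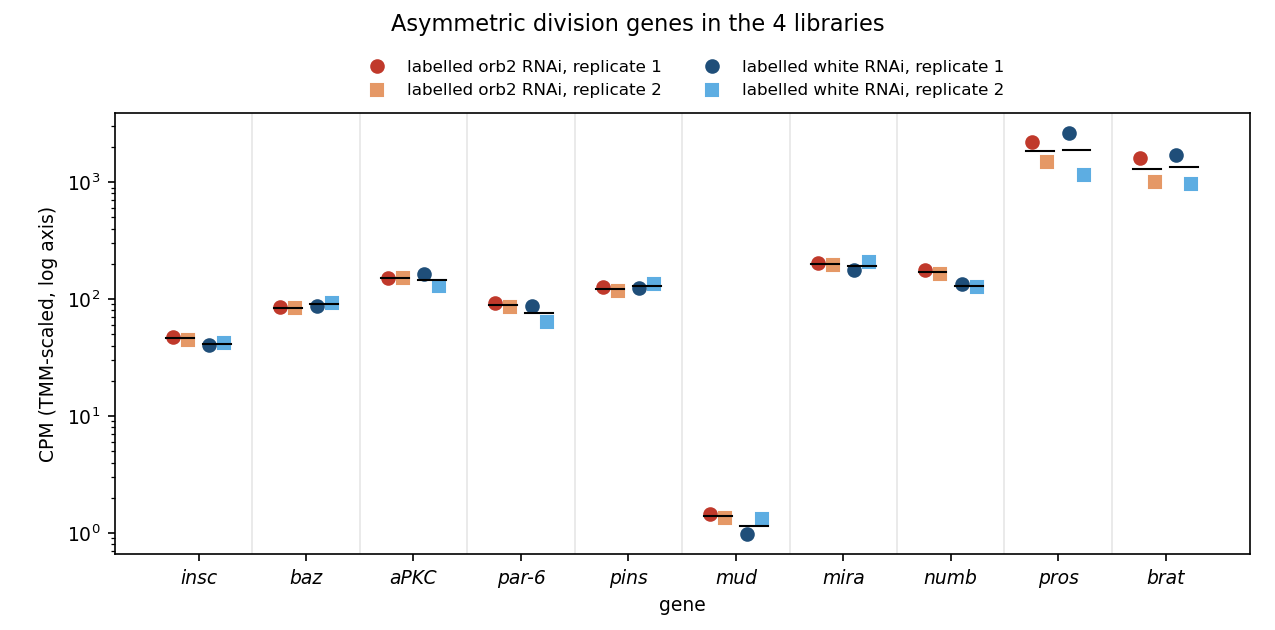
TMM-scaled CPM on a log axis (y) of the 10 genes (x) in the 2 libraries labelled *orb2* RNAi (red and orange, left) and the 2 labelled *white* RNAi (dark and light blue, right), with a bar at each mean. *pros* and *brat* lie at or above 971 CPM in every library, *mud* lies at or below 1.44 CPM, and the other 7 genes lie between 40.7 and 206 CPM.

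The levels of the set covered a wide range. Per kilobase of annotated exon (RPKM), *brat* had the highest mean at 103 (75.9 to 133 over the 4 libraries), followed by *pros* at 74.9 (46.1 to 104.8) and *mira* at 59.1 (53.8 to 62.1). The range of each of these 3 genes overlapped that of its neighbour, and the lowest library of *mira* lay above the highest of the next gene. *pins* at 38.4, *numb* at 30.8, *par-6* at 27.3 and *aPKC* at 23.2 RPKM formed an overlapping middle group. *insc* at 11.3 and *baz* at 8.04 RPKM were lower, each apart from its neighbours. *mud* was last at 0.143 RPKM, and its value is taken up below. Among tested protein-coding genes these means ran from the 93.4 percentile for *brat* to the 37.1 percentile for *baz* and the 2.34 percentile for *mud*. Exon bases are the union over all annotated transcripts, so genes with long alternative ends come out lower per kilobase than their shorter transcripts would.

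Of the basal proteins, *numb* had the largest difference between the labels. *numb* (FBgn0002973, chromosome 2L, 9437469 to 9464184, plus strand) had 179 and 165 CPM in pools labelled *orb2* RNAi, against 135 and 126 CPM in those labelled *white* RNAi. The groups did not overlap, and the means were 172 ± 9.84 and 131 ± 6.43 CPM (SD, n = 2 each). Its log2 fold change was 0.40 (standard error 0.188, 95% interval -0.10 to 0.89), the largest in the set, with an unadjusted p of 0.0935 and an adjusted p of 0.9998 from edgeR. The interval reached from a fold of 0.934 to one of 1.85, and so included no difference. Both libraries labelled *orb2* RNAi also stayed above both labelled *white* RNAi when *numb* was divided by *mira* (0.881 and 0.836, against 0.756 and 0.61) and when it was divided by the summed CPM of the NB markers (0.293 and 0.3, against 0.267 and 0.22). These ratios hold the same *numb* counts and are no separate support. Divided by the NB markers, *mud* also lay above without overlap, and *baz* and *pins* lay below without overlap. A share over all features on this scale is not given here, so these are not read as a result about the genes. The marker sum includes *grh*, at 143 and 99.7 CPM, against 89.4 and 59.1 CPM, and such ratios depend on the markers summed. Of the 7 markers, *grh* and *CycE* lay above without overlap and 0 lay below.

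*mira* (FBgn0021776, chromosome 3R, 19931799 to 19935120, minus strand), whose annotated transcripts form a single merged exon, varied little. It had 203 and 197 CPM in pools labelled *orb2* RNAi, against 179 and 206 CPM in those labelled *white* RNAi. The groups overlapped, and the log2 fold change was 0.06 (standard error 0.195, 95% interval -0.46 to 0.57, adjusted p = 0.9998 by edgeR). Relative to the summed NB markers it was the steadiest gene of the set, at 0.333 and 0.359 in the libraries labelled *orb2* RNAi and 0.353 and 0.361 in those labelled *white* RNAi, a range of 1.08-fold.

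As counted, the cargoes of *mira* varied more between libraries than their adaptor, which held for *brat* but hardly for *pros* with the exon length trend removed (ranges of 1.51-fold and 1.36-fold, against 1.35-fold for *mira*). *pros* (FBgn0004595, chromosome 3R, 11328480 to 11407627, plus strand) had 2205 CPM in replicate 1 and 1496 CPM in replicate 2 of the *orb2* RNAi label, against 2609 CPM in replicate 1 and 1146 CPM in replicate 2 of the *white* RNAi label. Its highest and its lowest library thus carried the same label, 2.28-fold apart. *brat* (FBgn0010300, chromosome 2L, 19133816 to 19179758, plus strand) was at 1597 and 1006 CPM, against 1701 and 971 CPM in the same order. For both genes replicate 1 was the higher library under each label. Their log2 fold changes were -0.02 (standard error 0.51, 95% interval -1.37 to 1.32) for *pros* and -0.04 (standard error 0.428, 95% interval -1.17 to 1.09) for *brat*, each with an adjusted p of 0.9998 from edgeR. The estimate for *pros* was 0.71 without replicate 1 and -0.50 without replicate 2 of the *white* RNAi label, and that for *brat* 0.44 and -0.39. Within a library, *pros* counted 10.9 and 7.59 times as many CPM as *mira* in the libraries labelled *orb2* RNAi, against 14.6 and 5.55 times in those labelled *white* RNAi. *pros* and *brat* together took 72.7% to 84% of the summed CPM of the 10 genes, so a sum over the set is mostly a reading of these genes. The sum of the other 8 was 889 and 847 CPM in the libraries labelled *orb2* RNAi, against 822 and 796 CPM in those labelled *white* RNAi.

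*pros* and *brat* are also expressed in neurons, and the summed CPM of 13 neuron markers moved between libraries in the same order. The 13 neuron markers (*elav*, *nSyb*, *Syt1*, *brp*, *Appl*, *fne*, *Gad1*, *ChAT*, *VGlut*, *Rdl*, *para*, *cac* and *Sh*) summed to 4097 and 3508 CPM in the libraries labelled *orb2* RNAi, against 5077 and 2697 CPM in those labelled *white* RNAi. Of the 13, 11 were lowest in replicate 2 labelled *white* RNAi, where 40.3% of all features tested were. The most abundant, *Appl*, was at 897 and 772 CPM, against 1205 and 590 CPM. The order of the sum did not hold for *nSyb*, *fne*, *Gad1*, *ChAT* and *Rdl*. *Gad1*, for example, was at 71.7 and 141 CPM, against 68.8 and 111 CPM. The 7 NB markers (*dpn*, *wor*, *ase*, *klu*, *grh*, *CycE* and *stg*) summed to 610 and 550 CPM, against 506 and 572 CPM. Of the 7, 4 were highest in replicate 2 labelled *white* RNAi, where 33.6% of all features tested were. The 3 markers of GMCs and new-born neurons (*tap*, *nerfin-1* and *dap*) summed to 892 and 844 CPM, against 874 and 722 CPM. Markers of tissues beside the brain varied as well. The 8 muscle markers, of which 7 were above 1 CPM in every library, summed to 625 and 577 CPM, against 130 and 301 CPM, and the 5 fat body markers, all above 1 CPM, to 506 and 2453 CPM, against 4130 and 178 CPM. None of these lists had a marker at 0 in all libraries. The highest and lowest library of *pros* and *brat* were not particular to neuron markers. *aPKC* was also highest in replicate 1 and lowest in replicate 2 labelled *white* RNAi. The latter was the lowest library for 83.1% of protein-coding genes with 4000 to 8000 exon bases (below). The part of the marker differences or of exon length in the levels of the 10 genes was not tested.

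**Figure D2:**
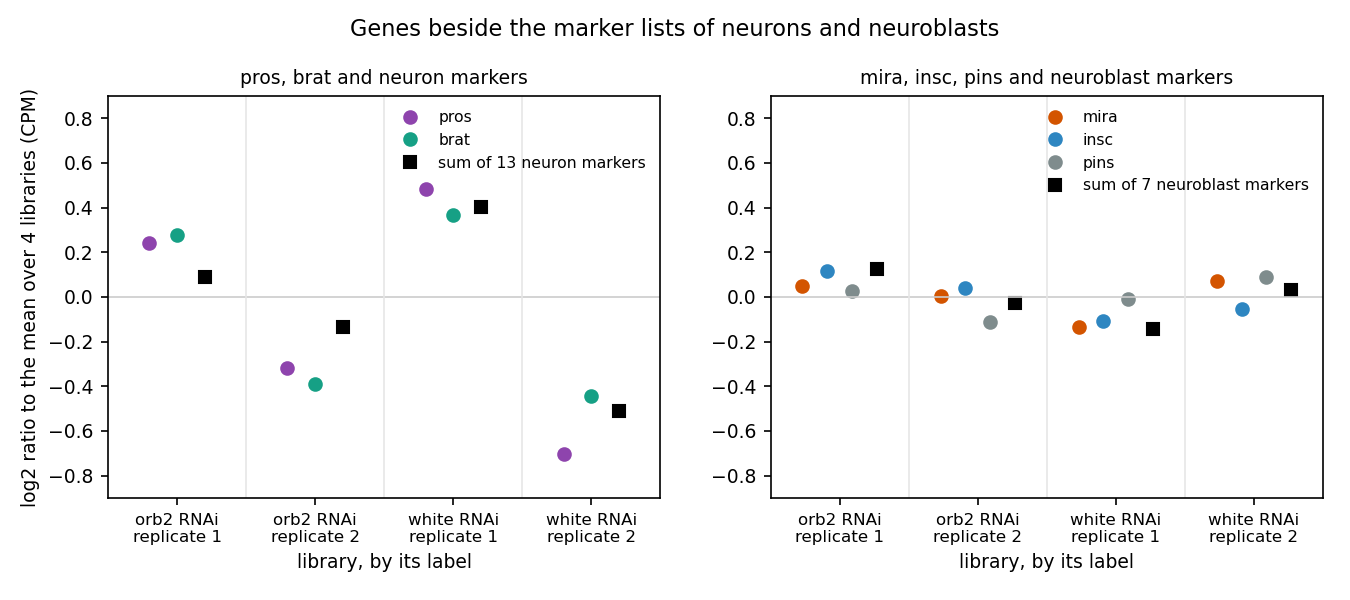
Log2 ratio of CPM to the mean over the 4 libraries (y) for each library by its label (x). On the left *pros*, *brat* and the sum of 13 neuron markers are all highest in replicate 1 and lowest in replicate 2 labelled *white* RNAi. On the right *mira*, *insc*, *pins* and the sum of 7 NB markers do not share that order. *aPKC*, not drawn, was also highest in replicate 1 and lowest in replicate 2 labelled *white* RNAi.

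Of the Par complex, *baz* (Par-3; FBgn0000163, chromosome X, 17160006 to 17200728, plus strand), the scaffold of the complex, had the smallest range over the 4 libraries in the set, 1.12-fold. It had 85.7 and 83.6 CPM in pools labelled *orb2* RNAi, against 87.2 and 93.4 CPM in those labelled *white* RNAi, so the libraries labelled *orb2* RNAi lay below the others. The log2 fold change was -0.09 (standard error 0.187, 95% interval -0.58 to 0.40, adjusted p = 0.9998 by edgeR). *aPKC* (FBgn0261854, chromosome 2R, 14944458 to 14962969, minus strand), the kinase of the complex, was at 151 and 152 CPM, against 166 and 128 CPM, with a log2 fold change of 0.05 (standard error 0.217, 95% interval -0.53 to 0.62). Its *orb2* RNAi values lay between those of the libraries labelled *white* RNAi. *par-6* (FBgn0026192, chromosome X, 17703352 to 17707096, plus strand), the regulatory partner of aPKC, was at 93.6 and 85.9 CPM, against 87.9 and 63.9 CPM, where only replicate 2 labelled *white* RNAi stood apart from the other 3 libraries. Its log2 fold change was 0.24 (standard error 0.241, 95% interval -0.40 to 0.88). Without replicate 1 labelled *white* RNAi it was 0.50 (unadjusted p = 0.036, adjusted p = 0.151 from edgeR), and without replicate 2 it was 0.03.

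The apical adaptor and the spindle genes came next. *insc* (FBgn0011674, chromosome 2R, 20821262 to 20836028, minus strand) had 47.5 and 45.1 CPM in pools labelled *orb2* RNAi, against 40.7 and 42.2 CPM in those labelled *white* RNAi. The groups did not overlap, with means of 46.3 ± 1.74 and 41.5 ± 1.09 CPM (SD, n = 2 each) and a log2 fold change of 0.16 (standard error 0.197, 95% interval -0.36 to 0.68, adjusted p = 0.9998 by edgeR). Divided by the summed NB markers the groups overlapped, at 0.078 and 0.0819 against 0.0804 and 0.0738. *insc* shares 359 of its 3887 exon bases with *sktl*, a lipid kinase gene inside its span, which was at 77.7 and 73.4 CPM, against 68.9 and 48.1 CPM. *pins* (FBgn0040080, chromosome 3R, 27582840 to 27586376, plus strand), which binds the G protein subunit Gαi, was at 128 and 116 CPM, against 125 and 134 CPM. The groups overlapped, and the log2 fold change was -0.08 (standard error 0.188, 95% interval -0.58 to 0.41). Divided by the summed NB markers, *pins* was at 0.21 and 0.212, against 0.248 and 0.234, without overlap. That gap depends on the markers summed, *grh* among them.

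In all, the *orb2* RNAi pair of libraries exceeded the *white* RNAi pair for 3 of the 10 genes (*insc*, *numb* and *mud*), where 18.5% of all features did, and was under it for 1 (*baz*), where 11.7% did. Among 10 genes these counts are not read as a result about the set. The median range over the 4 libraries was 1.35-fold for the set, against 1.51-fold for the 7293 tested protein-coding genes with a mean of at least 10 CPM, and *pros* (2.28-fold) and *brat* (1.75-fold) were the genes of the set above that.

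**Figure D3:**
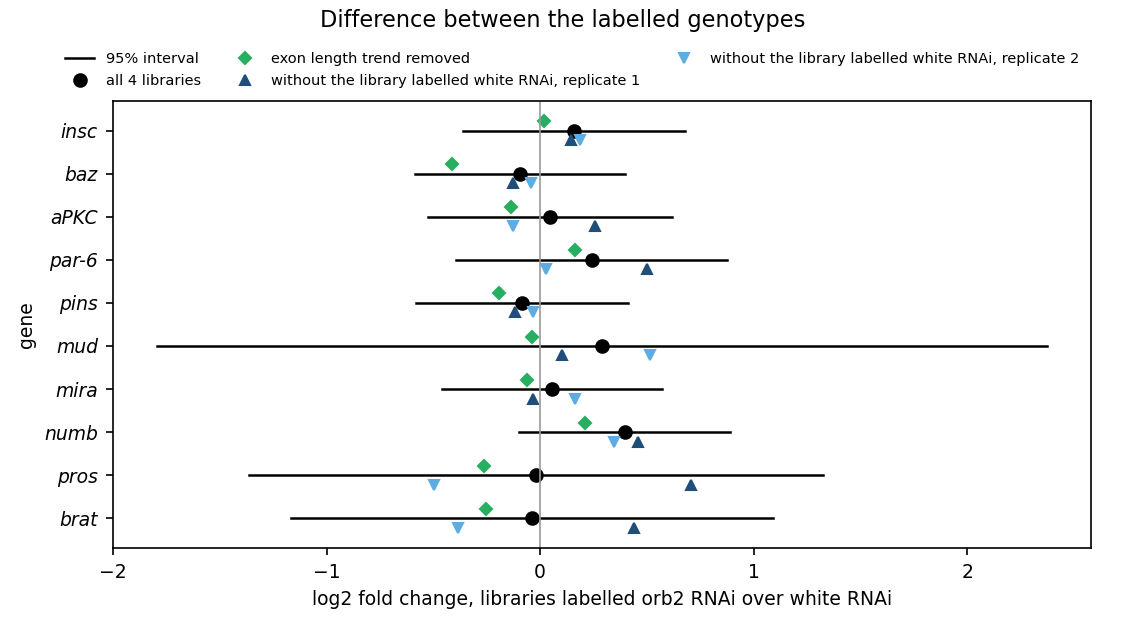
Log2 fold change, *orb2* RNAi label over *white* RNAi label (x), for each gene (y). Black points and lines are the edgeR estimates and 95% intervals over 4 libraries, green diamonds have each library's exon length trend removed, and blue triangles leave out 1 library labelled *white* RNAi. Every interval includes 0, and for *pros* and *brat* the estimate without replicate 1 (0.71 and 0.44) and without replicate 2 (-0.50 and -0.39) lie on opposite sides of it.

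*mud* (FBgn0002873, chromosome X, 14247732 to 14258595, plus strand), the homolog of NuMA that anchors dynein at the cortex, was counted 110 and 77 times in the libraries labelled *orb2* RNAi, against 61 and 43 times in those labelled *white* RNAi, or 1.44 and 1.35 CPM against 0.975 and 1.31 CPM. The groups did not overlap, and the log2 fold change of 0.29 had a standard error of 0.79 (95% interval -1.79 to 2.37, adjusted p = 0.9998 by edgeR). Few bases of the gene are free of another feature. An antisense RNA on the minus strand, *asRNA:CR46473* (FBgn0287604), covers 8769 of the 8895 exon bases of *mud* and leaves 126 outside the overlap. It was counted 188 and 111 times, against 68 and 50 times. The same held for other such genes. Of 116 protein-coding genes with at least 90% of their exon bases shared with features of the opposite strand and under 1% with the same strand, 98.3% were under 1 RPKM, with a median of 0. Of 9711 protein-coding genes that share under 1% of their exon bases, 39.3% were under 1 RPKM, with a median of 4.84. Counts were thus nearly absent for genes covered by a feature of the opposite strand, and the values of *mud* cannot be read as its mRNA level. The other genes shared from 0% (*mira*, *numb*, *par-6* and *pins*) to 9.24% (*insc*) of their exon bases.

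**Figure D4:**
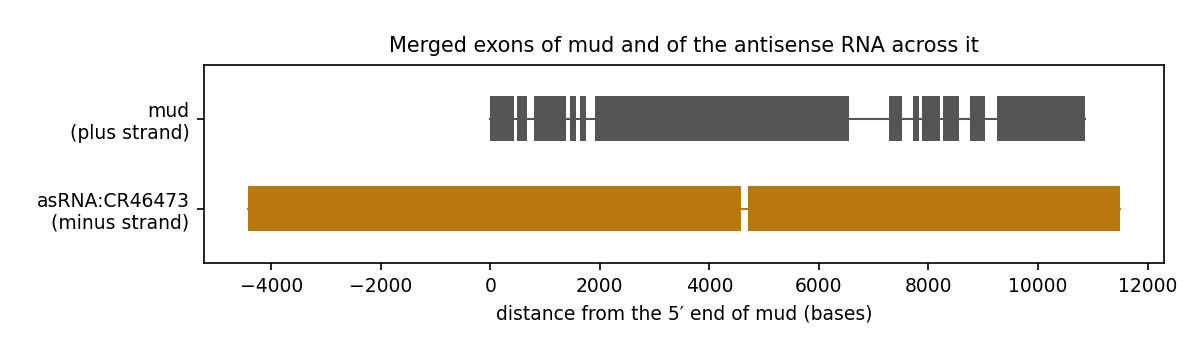
Merged exons (boxes) of *mud* on the plus strand and of *asRNA:CR46473* on the minus strand, by distance in bases from the 5′ end of *mud* (x). The antisense RNA runs past both ends of *mud*, and its only gap over an exon leaves 126 exon bases of *mud* uncovered.

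Differences between libraries went with exon length. Across 9094 protein-coding genes with a mean of at least 1 CPM, levels in replicate 2 labelled *white* RNAi relative to the other 3 libraries were lower for longer genes, with a Spearman rho of -0.606 across genes, which are not independent replicates and share these libraries. Replicate 2 labelled *white* RNAi was the lowest library for 42.3% of the genes with 2000 to 4000 exon bases, for 83.1% of those with 4000 to 8000, for 90.8% of those with 8000 to 16000 and for 95.6% of those above 16000. *pros*, the longest of the set with 24892 exon bases, of which 15530 are 3′ UTR, and *brat*, with 12788 exon bases, of which 8499 are 3′ UTR, were lowest in that library, as were *aPKC* with 6433 and *numb* with 4916. *baz* was not. With 10881 exon bases it was highest in replicate 2 labelled *white* RNAi, 1 of only 5 such genes among the 424 of 8000 to 16000 bases. *par-6* departed the other way, with 3032 exon bases and a log2 ratio of -0.48 to the other 3 libraries, where the median for genes of 2000 to 4000 bases was -0.10.

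After subtraction of a smooth curve against exon length, fitted library by library, the range over the libraries was narrower for 5 genes (*pros*, *brat*, *numb*, *aPKC* and *par-6*) and wider for the other 5 (*baz*, *mud*, *mira*, *pins* and *insc*). Replicate 2 labelled *white* RNAi was the lowest library for 5 of the 10 genes as counted, against 40.3% of all features tested. With the trend removed it was the highest for 8 of the 10, and a share over all features on that scale is not given here. *pros* came to 1761 and 1463 length-adjusted CPM in the libraries labelled *orb2* RNAi, against 1884 and 1989 in those labelled *white* RNAi, a range of 1.36-fold in place of 2.28-fold. *brat* came to 1372 and 978, against 1331 and 1473. *mira* came to 195 and 189, against 171 and 230, a range of 1.35-fold in place of 1.16-fold, which is close to that of *pros*. *baz* came to 74.7 and 80.9, against 69.8 and 138, a range of 1.97-fold in place of 1.12-fold. On this scale the log2 fold changes were -0.26 for *pros*, -0.26 for *brat*, -0.41 for *baz* and 0.21 for *numb*, and edgeR called 0 of the 10 genes, each with an adjusted p of 0.99998. *numb* came to 166 and 157 length-adjusted CPM, against 122 and 158, so its groups overlapped on this scale, as did those of *insc*, *baz* and *mud*. For *pros*, whose groups overlapped as counted, both libraries labelled *orb2* RNAi lay below both labelled *white* RNAi on this scale. The sizes of the log2 fold changes, those of *pros*, *brat*, *baz*, *numb* and *mud* among them, thus depend on whether the trend is removed.

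**Figure D5:**
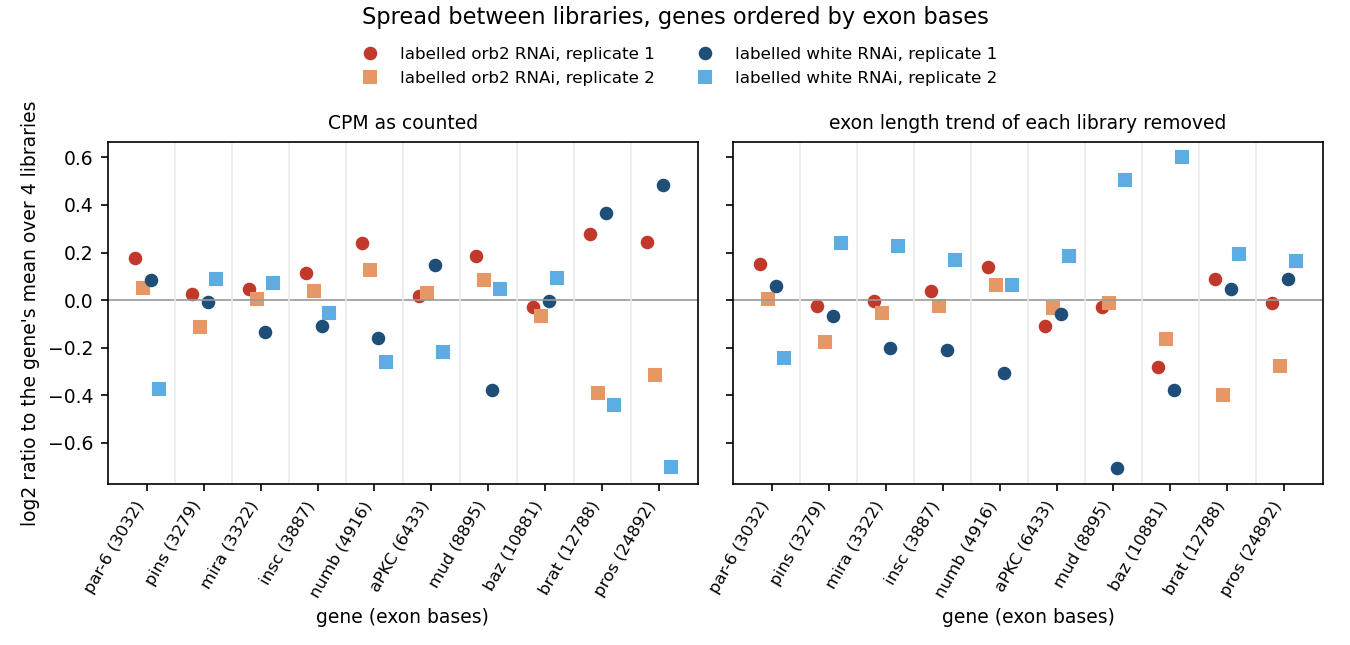
Log2 ratio to each gene's mean over the 4 libraries (y) for the 10 genes ordered by exon bases (x), as counted (left) and with each library's exon length trend removed (right). Replicate 2 labelled *white* RNAi (light blue squares) lies lowest for 5 genes on the left (*par-6*, *numb*, *aPKC*, *brat* and *pros*) and highest for 8 of the 10 on the right, all but *par-6* and *numb*.

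The other genes of the pathway did not pass the test either. Of 34 listed, 33 were matched and tested, and edgeR called 0 higher and 0 lower, with 0 at an unadjusted p under 0.05. DESeq2 called none of them either, with and without its prior. Their median log2 fold change was 0.08, with 21 above 0 and 12 below. The *orb2* RNAi pair exceeded the *white* RNAi pair for 4 of the 33 (*l(2)gl*, *loco*, *tws* and *SAK*), against 18.5% of all features, and was under it for *ana2*, against 11.7%. The highest log2 fold changes were those of *cno*, an actin-binding polarity protein, at 0.51 (203 and 180 CPM, against 183 and 85.9 CPM) and *Wdr62*, a spindle pole protein, at 0.42 (161 and 119 CPM, against 155 and 54.4 CPM). For both, replicate 2 labelled *white* RNAi alone stood low. The lowest were those of *ana2*, a centriole assembly factor, at -0.36 (12.3 and 13.5 CPM, against 13.7 and 19.3 CPM) and *Cdc42*, the GTPase that activates the Par complex, at -0.18 (373 and 303 CPM, against 342 and 424 CPM). The 10 spindle orientation genes, among them the partner of *pins*, *Galphai* (225 and 216 CPM, against 213 and 227 CPM), had log2 fold changes of -0.13 to 0.21. The basal partners *pon*, which localizes Numb, and *stau*, another cargo of *mira*, were at 0.05 and 0.10.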

How the data were processed

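PolyA RNA of 4 brain pools was sequenced. Per the study's methods, the authors trimmed reads with Trim Galore, aligned them with HISAT2 to BDGP6.32 (Ensembl 105) and counted them with featureCounts. The deposited values are raw counts per feature, and strand and multi-mapping settings are not given in the sources used here. The labels and the methods name different TruSeq kits.

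Samples were grouped by their titles. Counts were tested in R 4.3.3 with edgeR 4.0.16 (TMM, filterByExpr, quasi-likelihood test, Benjamini-Hochberg adjustment over all 13082 features), without a replicate block. DESeq2 1.42.0 was an alternative, as were other scalings and filters, a block, an exon length trend (lowess, span 0.3, log2 CPM with a prior count of 0.5) and each library left out. The edgeR fit and the length trend, but not DESeq2, were tested on simulated data. In the simulation for the edgeR fit all replicates varied alike. It does not cover a library that departs as replicate 2 labelled *white* RNAi does. Nothing says the pools were independent crosses, so p-values measure the spread between these pools. Library totals are given in the report, and the spread between libraries, not counting error, limits precision except for *mud*.

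Positions, exon bases and overlaps come from the BDGP6.54 annotation (Ensembl 115), later than the authors' own, with exon bases for 99.7% of tested features. All 10 members are named, as are *orb2*, *w*, the pathway genes with the 2 highest and 2 lowest log2 fold changes, and the most abundant marker. The overlapping features *sktl* and *asRNA:CR46473*, the pathway genes whose groups do not overlap, *Galphai*, *pon* and *stau* were named after their values were seen. So were *grh*, *CycE* and the neuron markers named as leaving the order of their sum. *zip* and *phm* had no row under the symbol listed, and *phm* was read as *phtm*. The members and lists were chosen with earlier results of these data known.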

Additional observations from a re-analysis of the deposited data

How the results depend on the processing

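No gene of the set, and none of the other pathway genes, was called in any of the 9 alternatives with 4 libraries or with any library left out. For the 10 genes, the smallest adjusted p of any alternative was 0.151, for *par-6* without replicate 1 labelled *white* RNAi. Over all features the count of calls depended on the setting. DESeq2 without shrinkage called 66 higher and 21 lower, DESeq2 with its prior 27 and 3, and edgeR with the replicate block, which pairs the sample numbers of the labels, 62 and 11. With 1 library left out, 0 to 91 were higher and 0 to 51 lower, the most higher without replicate 1 and the most lower without replicate 2 labelled *orb2* RNAi, where the remaining library is assumed to vary like the other group. The cause was not tested. The sample numbers share no stated batch. The replicate 1 minus replicate 2 differences of the genotypes had a correlation of 0.163 across features, and with 2 pairs the block was not used further.

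Directions near 0 turned in 5 of 90 values with 4 libraries. *pros* was at 0.0065 with library totals alone and at 0.070 with the replicate block. With the exon length trend removed, *aPKC* was at -0.14, *mira* at -0.059 and *mud* at -0.038. Leaving out 1 library gave -0.50 to 0.71 for *pros*, -0.40 to 0.44 for *brat*, -0.13 to 0.26 for *aPKC*, -0.032 to 0.16 for *mira*, 0.10 to 0.52 for *mud* and 0.03 to 0.50 for *par-6*. *numb* kept its direction, at 0.21 to 0.44 with 4 libraries and 0.35 to 0.46 with 1 left out, and *insc*, *baz* and *pins* kept theirs. With 2 libraries per genotype, the 95% intervals of the report set what could be seen.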
